A study of Mus musculus with 721 samples.

Results

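The genes followed here are 9 genes of the pathway that cuts proteins into peptides and presents them at the cell surface on major histocompatibility complex (MHC) class I molecules. They were taken by symbol from the deposited count table, which has 24483 gene rows. *Psmb8*, *Psmb9* and *Psmb10* encode the catalytic subunits of the immunoproteasome, *Psme1* and *Psme2* the subunits of the PA28 activator, *Tap1* a subunit of the peptide transporter, *B2m* the light chain of class I molecules, and *H2-D1* and *H2-K1* their classical heavy chains. All 9 passed the filter on low counts. They were chosen because several of them were higher in epiblast at E5.5 than at E4.5, so that contrast is given as a description and carries no test.

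The proteasome is a barrel-shaped protease whose standard catalytic subunits, encoded by *Psmb5*, *Psmb6* and *Psmb7*, can be replaced by PSMB8, PSMB9 and PSMB10 respectively, which changes the peptides that are cut. PA28 caps the barrel and opens it for small substrates. The peptides enter the endoplasmic reticulum through TAP1 and TAP2 and are loaded with the help of tapasin (*Tapbp*) onto a heavy chain bound to B2M. Interferons induce the whole group in most cell types, and early mouse embryos are known for low surface MHC class I.

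The data are full-length transcriptomes of 721 hand-picked cells from wild-type C57Bl/6Babr mouse embryos at embryonic day (E) 3.5, 4.5, 5.5 and 6.5. The E3.5 cells (13.7% of all cells) came from 10 embryos, the E4.5 cells (14.6%) from 5, the E5.5 cells (37.03%) from 9 and the E6.5 cells (34.7%) from 13, and no treatment was given. Cells titled E6.75, from 2 of those 13 embryos, carry the E6.5 stage label and were kept in it. Embryos were told apart by stage title, plate and embryo number, so the E6.5 and E6.75 embryos 1 and 2 without a plate name were assumed to be 4 embryos. This gave 37 embryos in all. The paper counts fewer, so some embryos treated here as different may be parts of the same one. Which ones these would be was not tested. At E3.5 and E4.5 the trophectoderm had been removed with antiserum and complement, whereas later embryos were dissected by hand, so stage and isolation cannot be told apart. Cells held between 66896 and 3792936 counts (median 692863), and 17.8% of the wells were labelled as holding 2 cells.

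Classes were rebuilt by clustering without the 9 genes and the other listed pathway genes, and were named from markers. E3.5 was kept as 1 class of 99 cells. E4.5 gave 78 primitive endoderm-like (PrE-like) and 27 epiblast-like cells. At E5.5 all but 8 cells, which were endoderm-like, were epiblast-like (35.9% of the 721 cells). E6.5 gave an epiblast-like class (24.8% of the 721), 26 streak-like and 41 endoderm-like cells, and 4 cells stayed unnamed. Counts were summed over the cells of 1 class in 1 embryo wherever at least 3 cells were present, and each sum served as 1 replicate. This gave 10 sums at E3.5, 5 PrE-like and 5 epiblast-like sums at E4.5, 8 epiblast-like sums at E5.5, and 12 epiblast-like and 7 endoderm-like sums at E6.5, of which 2 in each class are titled E6.75. The E5.5 endoderm-like and E6.5 streak-like classes had 1 sum each, and their values are given without a test. Levels are CPM, the counts of a gene per 1000000 counts of the sum, with library sizes scaled by trimmed means (TMM). In a sum, fewer expressing cells and less RNA per cell cannot be told apart.

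The classes were named from the endoderm, epiblast and streak marker lists, so marker levels describe the classes and do not test their names. The summed level of the endoderm markers was 11871 to 31638 CPM in E6.5 endoderm-like sums and 572 to 6262 CPM in E6.5 epiblast-like sums. At E4.5 it was 9859 to 17169 CPM in PrE-like and 1502 to 3990 CPM in epiblast-like sums, and at E5.5 it was 352 to 624 CPM in epiblast-like sums. Of 14 leukocyte markers, 9 were detected in E5.5 epiblast-like sums, led by *Laptm5*, *Coro1a* and *Csf1r*. The other 5, *Ptprc*, *Tyrobp*, *Lyz2*, *C1qa* and *C1qb*, were at 0 in every such sum. The summed leukocyte list was 19.2 to 57.2 CPM there against 50.6 to 139.3 CPM in E4.5 epiblast-like sums.

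*Psmb8*, *Psmb9*, *Tap1*, *H2-K1* and *H2-D1* sit in the MHC region of chromosome 17 in GRCm38. *Psmb9* (34181987 to 34187764, minus strand), *Tap1* (34187553 to 34197225, plus strand) and *Psmb8* (34197721 to 34201454, plus strand) are neighbours, *H2-K1* lies before them (33996017 to 34000347, minus strand) and *H2-D1* after them (35262730 to 35267499, plus strand). *Psme1* (55578123 to 55581529, plus strand) and *Psme2* (55587441 to 55591113, minus strand) neighbour each other on chromosome 14. *Psmb10* is on chromosome 8 (105935735 to 105938444, minus strand) and *B2m* on chromosome 2 (122147686 to 122153083, plus strand). Some exon sequence is not unique. Of the 100-base windows of the exons, 384 of 2083 in *Psme2* also occur in *Psme2b*, 93 of 2591 in *H2-D1* and 38 of 3969 in *H2-K1* occur in other class I genes, and none of *B2m* or *Psmb10* is shared. *Psmb9* and *Tap1*, which overlap, share 2.73% of the *Psmb9* windows and *Psmb8* shares 293 of 3642 with the overlapping model *Gm20496*. The counting is not stated to use strand, so these overlaps could not be resolved.

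The promoters of 6 of the genes are shown because they carry the letters known from interferon and NF-kappaB control of this pathway, or because 2 genes share them. The windows run from 250 bases before to 50 bases after the start in RefSeq (GRCm38.p6), 5′ to 3′ on the gene's strand, with capitals marking the matches to the interferon-stimulated response element, to TTCNNNGAA (gamma-activated site) and to 2 forms of the kappaB element on either strand. TGACGTCA (cyclic AMP response element), CCAAT and GGGCGG (GC box) were searched too and are not in capitals.
B2m: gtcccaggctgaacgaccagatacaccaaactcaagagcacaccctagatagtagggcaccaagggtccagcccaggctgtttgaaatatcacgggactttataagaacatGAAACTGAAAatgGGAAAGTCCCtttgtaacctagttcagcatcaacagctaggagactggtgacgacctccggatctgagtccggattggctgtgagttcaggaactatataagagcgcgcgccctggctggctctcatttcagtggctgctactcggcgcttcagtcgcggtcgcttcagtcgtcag
H2-K1: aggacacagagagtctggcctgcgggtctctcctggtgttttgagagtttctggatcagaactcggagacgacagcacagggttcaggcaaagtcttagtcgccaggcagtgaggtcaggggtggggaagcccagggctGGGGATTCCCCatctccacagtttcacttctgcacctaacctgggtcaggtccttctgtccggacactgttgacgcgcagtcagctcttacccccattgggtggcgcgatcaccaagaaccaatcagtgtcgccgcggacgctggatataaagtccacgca
H2-D1: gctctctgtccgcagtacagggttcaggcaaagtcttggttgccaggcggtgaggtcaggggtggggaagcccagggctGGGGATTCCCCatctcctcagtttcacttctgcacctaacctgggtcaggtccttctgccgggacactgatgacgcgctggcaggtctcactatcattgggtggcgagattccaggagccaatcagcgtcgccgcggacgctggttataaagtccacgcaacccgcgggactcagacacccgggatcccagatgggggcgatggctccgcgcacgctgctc
Psme1: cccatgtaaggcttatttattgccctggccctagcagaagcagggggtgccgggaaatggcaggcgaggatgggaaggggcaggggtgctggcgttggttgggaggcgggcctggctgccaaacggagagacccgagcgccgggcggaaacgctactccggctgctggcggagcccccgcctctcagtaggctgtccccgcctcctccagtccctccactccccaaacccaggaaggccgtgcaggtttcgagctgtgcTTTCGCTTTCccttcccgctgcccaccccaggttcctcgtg
Psmb8: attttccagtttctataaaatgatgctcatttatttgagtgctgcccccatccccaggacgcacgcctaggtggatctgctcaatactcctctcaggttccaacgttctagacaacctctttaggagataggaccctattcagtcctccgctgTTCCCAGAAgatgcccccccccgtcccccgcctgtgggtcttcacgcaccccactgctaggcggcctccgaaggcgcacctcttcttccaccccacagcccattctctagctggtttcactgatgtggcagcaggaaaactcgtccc
Tap1: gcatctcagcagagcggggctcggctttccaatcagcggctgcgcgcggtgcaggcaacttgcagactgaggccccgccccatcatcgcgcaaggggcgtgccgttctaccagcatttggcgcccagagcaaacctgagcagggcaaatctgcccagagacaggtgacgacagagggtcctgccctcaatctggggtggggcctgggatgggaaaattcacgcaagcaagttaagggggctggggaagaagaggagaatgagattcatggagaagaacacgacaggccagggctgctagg

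These windows are chr2:122147437-122147736 for *B2m*, chr17:34000298-34000597 (minus strand) for *H2-K1*, chr17:35262844-35263143 for *H2-D1*, chr14:55578244-55578543 for *Psme1*, chr17:34197945-34198244 for *Psmb8* and chr17:34187306-34187605 for *Tap1*. The response element stood upstream of the kappaB match in *B2m* and at base 10 after the start of *Psme1*, and 3.443% of 32851 mouse promoter windows hold it. A gamma-activated site stood at -97 in *Psmb8* (8.298% of windows). The shorter kappaB form stood at -126 in *B2m* (0.155% of windows), and the longer one at -171 in *H2-D1* and -111 in *H2-K1* (0.03% of windows). None held the cyclic AMP element (1.79% of windows), whereas CCAAT and the GC box, found in 37.408% and 35.658% of windows, are common. Over their aligned 240 bases the *H2-K1* and *H2-D1* windows were identical at 73.3% of positions. The windows of *Psmb9* and *Tap1*, which are read in opposite directions, share 275 bases. These matches describe the letters only.

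Of the 9 genes, *Psmb8* was the one whose counts were nearest to a switch. No count fell on *Psmb8* in any of the 10 E3.5 sums, the 5 PrE-like sums or the 5 E4.5 epiblast-like sums. In the 8 E5.5 epiblast-like sums it stood at 16.7 CPM at the lowest, 86.3 CPM at the median and 146.8 CPM at the highest. All 8 were thus above every earlier sum, with 21477 counts against 0 in E4.5 epiblast-like cells. A count of 0 allows up to 3 counts over the group, so the E5.5 level was at least 624-fold higher. The E5.5 endoderm-like sum, from 1 of the same embryos, had none, although 1 of all 8 cells of that class had a count. At E6.5 the epiblast-like sums ranged from 0 to 28.8 CPM around a median of 3.39 CPM, with 2 of 12 at 0, and the streak-like sum held 1.64 CPM. In E6.5 endoderm-like cells 6 of 7 sums were at 0 and the other held 1.02 CPM, from 3 counts.

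*Psmb9*, whose product replaces PSMB6, showed no such pattern. It was detected at E3.5 at 0 to 57.6 CPM (median 5.55 CPM, 2 of 10 sums at 0). The PrE-like sums held 0, 27.4, 4.21, 7.88 and 2.93 CPM, and of the E4.5 epiblast-like sums only embryo 2 had counts, at 27.9 CPM. The E5.5 epiblast-like sums lay between 4.01 and 15.8 CPM around a median of 9.17 CPM, within the range seen at E3.5 and in PrE-like cells. At E6.5, 7 of 12 epiblast-like sums were at 0 and the highest held 2.33 CPM, and no count was found in the 7 endoderm-like sums or in the streak-like sum. E5.5 was the stage at which every epiblast-like sum had counts of all 3 catalytic subunits.

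*Psmb10*, which replaces PSMB7, was present earlier than *Psmb8*. Its E3.5 sums reached 29.6 CPM (median 14.7 CPM). The 5 PrE-like sums held 51.2, 55.96, 7.37, 42.9 and 24.8 CPM and the 5 epiblast-like sums of the same embryos 183.7, 226.4, 166.02, 100.3 and 206.5 CPM. Each E4.5 epiblast-like sum was therefore above every PrE-like sum and above every E3.5 sum. In E5.5 epiblast-like sums the level was 350.2 to 908 CPM (median 552 CPM), above every sum of the other classes, whereas the E5.5 endoderm-like sum held 0.309 CPM from 2 counts. Over all 8 E5.5 endoderm-like cells, 4 had a count. The E6.5 epiblast-like sums (102.4 to 276 CPM, median 182.1 CPM) and endoderm-like sums (66.6 to 202.7 CPM, median 101.5 CPM) overlapped each other and the E4.5 epiblast-like sums.

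**Figure D1:**
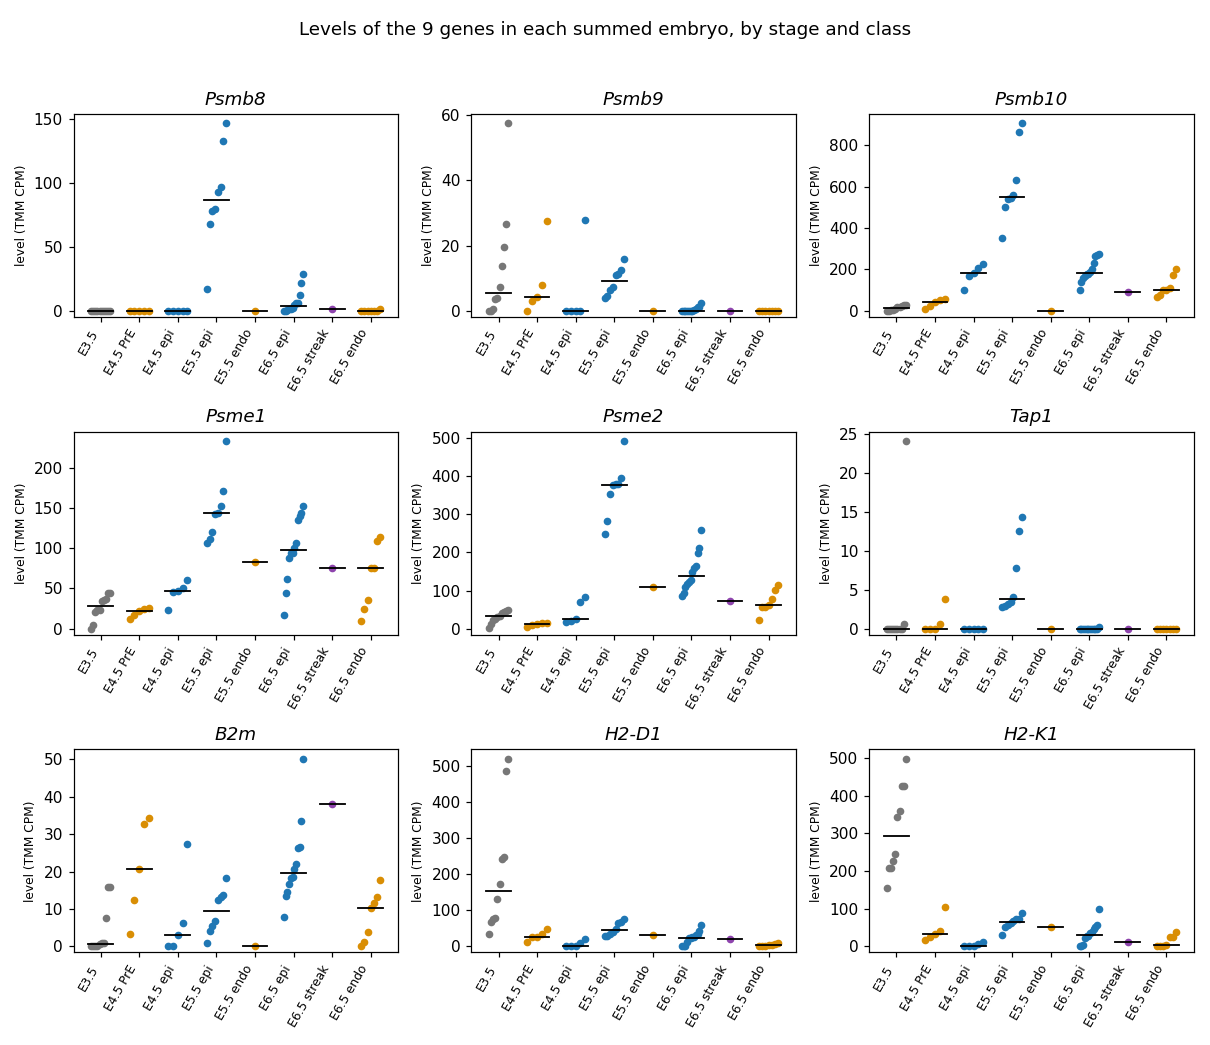
Level of each of the 9 genes (vertical axes, TMM CPM, linear) in every summed embryo by stage and class; each point is 1 sum, the bar is the median, and colours mark E3.5 (grey), PrE or endoderm (orange), epiblast (blue) and streak (purple). *Psmb8* points leave 0 in E5.5 and E6.5 epiblast, *Psmb10* and *Psme2* are highest in E5.5 epiblast, and *H2-D1* and *H2-K1* are highest at E3.5.

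Set against its standard counterpart per exon length, only *Psmb10* reached a comparable level. The *Psmb10* level was 6.28% of that of *Psmb7* at the E3.5 median and 13.7% in PrE-like sums. It was 51.2% in E4.5 epiblast-like sums (24.1% to 63.9%). In E5.5 epiblast-like sums it was 175.1% (113.5% to 209.1%), with *Psmb10* RNA above *Psmb7* RNA by this measure in all 8. Exon length here is the union of all annotated exons of a gene, 1705 bases for *Psmb10* and 3421 for *Psmb7*. Without division by length, the E5.5 epiblast-like mean of *Psmb10* was below that of *Psmb7*, at 612.6 against 741.5 CPM. These ratios therefore depend on the lengths used. The E6.5 medians were 82.1% in epiblast-like and 59.1% in endoderm-like sums. *Psmb8* reached 2.32% of *Psmb5* at the E5.5 epiblast-like median (0.417% to 4.20%), and *Psmb9* 0.352% of *Psmb6*. The standard subunits differed little between E5.5 and E4.5 epiblast-like sums, by log2 fold changes of 0.36 ± 0.18 (SE) for *Psmb5*, 0.09 ± 0.20 for *Psmb6* and -0.02 ± 0.25 for *Psmb7*.

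**Figure D2:**
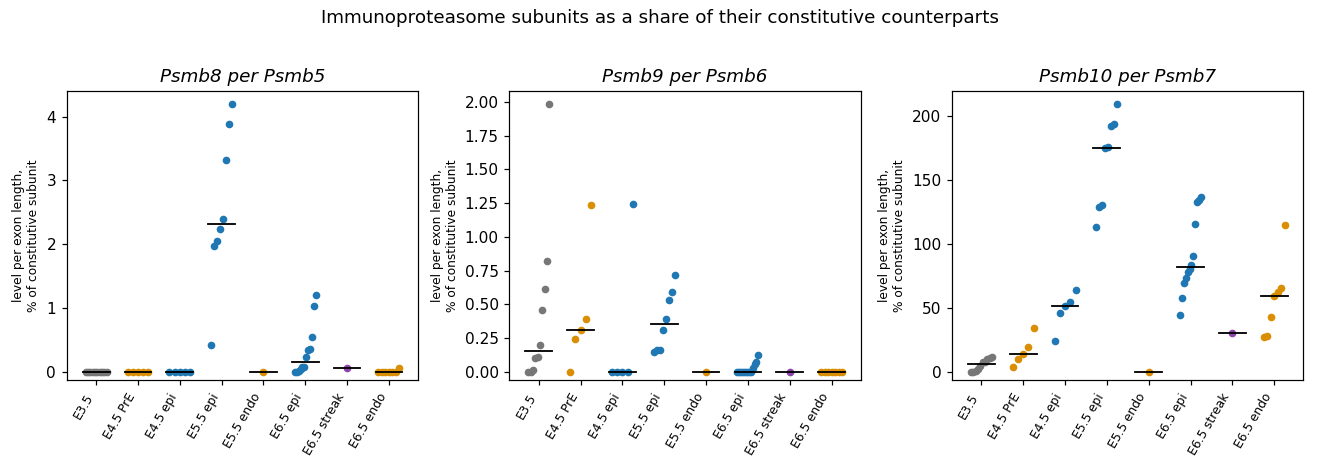
Level per exon length of *Psmb8*, *Psmb9* and *Psmb10* as a percentage of that of *Psmb5*, *Psmb6* and *Psmb7* (vertical axes, linear, with different ranges), by stage and class; points are sums and lines medians. In the third panel all 8 E5.5 epiblast sums lie above 100%, with a median of 175.1%, while the first 2 panels stay at a few percent.

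The subunits of PA28, which feeds the proteasome, were detected in every class. *Psme1* was at 0 to 44.4 CPM at E3.5 (median 28.6 CPM), and its 5 PrE-like sums held 16.6, 22.5, 11.6, 25.4 and 24.6 CPM. The E4.5 epiblast-like sums held 61.1, 45.3, 23.2, 50.8 and 46.3 CPM and the E5.5 epiblast-like sums 106.3 to 233.8 CPM (median 143.5 CPM). The E5.5 group lay above all E4.5 sums, but the E6.5 epiblast-like sums (16.3 to 152.8 CPM, median 97.5 CPM) and endoderm-like sums (9.72 to 114.7 CPM, median 75.2 CPM) overlapped it.

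*Psme2* stood between 2.06 and 47.6 CPM at E3.5 (median 32.2 CPM). Its PrE-like sums held 9.27, 4.75, 12.8, 15.3 and 15.4 CPM, all below the E4.5 epiblast-like sums at 69.8, 19.7, 17.5, 24.6 and 83.5 CPM. The E5.5 epiblast-like sums reached 247.8 to 493 CPM (median 378 CPM), against 108.1 CPM in the E5.5 endoderm-like sum. At E6.5 it was 86.2 to 259.1 CPM in epiblast-like sums (median 139.1 CPM), 71.6 CPM in the streak-like sum and 22.3 to 113.3 CPM in endoderm-like sums (median 62.1 CPM). Per exon length *Psme2* stood at 53.1% of *Psme3*, the gene of a nuclear activator of the same family, in E4.5 epiblast-like sums and at 439.7% in E5.5 epiblast-like sums (333.7% to 684.8%). For *Psme1* the E5.5 figure was 142.7%.

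*Tap1* was the scarcest of the 9 genes. It was at 0 in 8 of 10 E3.5 sums, with 24.2 CPM in embryo 4 and 0.618 CPM in another, and the PrE-like sums held 3.77, 0.648, 0, 0 and 0 CPM. No E4.5 epiblast-like sum had a count, whereas all 8 E5.5 epiblast-like sums did, at 2.72 to 14.4 CPM (median 3.75 CPM). At E6.5 it was found in 1 of 12 epiblast-like sums (0.185 CPM, 2 counts) and in no endoderm-like sum. *Tap2*, for the other subunit of the transporter, was at 0 in all E4.5 sums and in 9 of 10 E3.5 sums, at 2.55 to 29.8 CPM in E5.5 epiblast-like sums, and at 0 in 9 of 12 E6.5 epiblast-like sums. *Tapbp* ranged from 1.16 to 93.1 CPM in E4.5 epiblast-like sums, from 39.5 to 174.4 CPM in E5.5 epiblast-like sums and from 0.295 to 22.6 CPM in E6.5 epiblast-like sums.

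The class I heavy chains and their light chain did not follow the proteasome genes. *H2-K1* was highest at E3.5, at 155.5 to 498 CPM (median 294 CPM). The PrE-like sums held 33.8, 25.7, 106.01, 41.9 and 16.9 CPM and the E4.5 epiblast-like sums 13.2, 0.58, 0, 0.873 and 6.93 CPM, so that the 3 groups were in descending order with no overlap. In E5.5 epiblast-like sums it was 30.6 to 87.9 CPM (median 65.7 CPM), above the E4.5 epiblast-like sums and below the E3.5 sums, with 50.4 CPM in the E5.5 endoderm-like sum. The E6.5 epiblast-like sums (1.55 to 98.5 CPM, median 31.2 CPM) and endoderm-like sums (0 to 39.3 CPM, 3 of 7 at 0) overlapped.

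*H2-D1* had the same order of medians over these classes, with overlap between E3.5 and PrE-like and between the E4.5 sums. It was at 34.8 to 519 CPM at E3.5 (median 152.5 CPM), and the PrE-like sums held 25.4, 11.5, 33.2, 25.7 and 48.8 CPM. The E4.5 epiblast-like sums held 21.5, 0, 1.01, 1.40 and 9.63 CPM, and the E5.5 epiblast-like sums 28.4 to 74.7 CPM (median 44.4 CPM), with no overlap between these 2 groups. At E6.5 the epiblast-like sums reached 60.4 CPM (median 24.8 CPM, 3 of 12 at 0) and the endoderm-like sums 9.49 CPM (median 4.16 CPM, 2 of 7 at 0).

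*B2m*, the gene of the light chain that heavy chains bind, was low throughout. It was at 0 to 15.9 CPM at E3.5 (median 0.765 CPM, 3 of 10 at 0). The PrE-like sums held 34.4, 3.24, 12.3, 20.6 and 32.7 CPM, the E4.5 epiblast-like sums 3.02, 6.38, 0, 0 and 27.4 CPM, and the E5.5 epiblast-like sums 1.05 to 18.3 CPM (median 9.49 CPM). These 3 groups overlapped. At E6.5 the epiblast-like sums lay at 7.76 to 50.1 CPM (median 19.6 CPM), the streak-like sum at 37.96 CPM and the endoderm-like sums at 0 to 17.6 CPM (median 10.4 CPM). *B2m* was thus the member with its highest epiblast-like median at E6.5 instead of E5.5.

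Per exon length the 9 genes spanned more than 2 orders of magnitude in E5.5 epiblast-like sums. In CPM per kilobase (mean ± SD, n = 8) *Psmb10* stood at 359.3 ± 109.5 and *Psme2* at 206.1 ± 42.1, followed by *Psme1* at 67 ± 18.6. *Psmb8* (26.3 ± 11.8), *H2-K1* (21.5 ± 5.88) and *H2-D1* (18.8 ± 7.13) did not differ beyond their spread. *B2m* stood at 10.8 ± 6.84, *Psmb9* at 2.49 ± 1.15 and *Tap1* at 1.16 ± 0.855. For comparison, *Psmb5* stood at 1056 ± 127.3 and *Psmb7* at 216.8 ± 35.5, while at E3.5 the classical heavy chains stood at 105.4 ± 39.5 for *H2-K1* and 79.7 ± 66.8 for *H2-D1* (n = 10).

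The contrast that chose the genes compared E5.5 with E4.5 epiblast-like sums. Beside the bounds given for *Psmb8* and of at least 42.5-fold for *Tap1*, the log2 fold changes were 3.85 ± 0.98 for *H2-K1*, 3.07 ± 0.48 for *Psme2*, 2.84 ± 1.01 for *H2-D1*, 1.80 ± 0.56 for *Psmb10*, 1.71 ± 0.57 for *Psme1*, 0.74 ± 1.51 for *Psmb9* and 0.33 ± 1.10 for *B2m*. Of the 9, 7 had every E5.5 sum above every E4.5 sum (6.26% of all 16984 genes tested), and 5 passed the limits used here, an adjusted p of at most 0.05 and an absolute log2 fold change above 1 (2.53% of all genes in that direction). Since the genes were chosen on this contrast, nothing follows from those counts. The median log2 fold change was 2.84 over the 9 genes and 0.22 over all genes. Some values rested on 1 E4.5 embryo: without embryo 1 *H2-D1* stood at 3.92, without embryo 2 *Psmb9* stood at 9.71 and without embryo 5 *B2m* stood at 2.14, and among cells labelled single *H2-K1* stood at 7.23.

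Contrasts that share those sums are given in the same way. The limit within E4.5 follows the study's methods and is stricter than elsewhere. At a log2 fold change of 2 as the limit, PrE-like against epiblast-like sums gave -2.28 ± 0.60 for *Psmb10* and 3.36 ± 0.99 for *H2-K1*, the 2 members past the limits (4.49% of all genes), and -1.90 ± 0.48 for *Psme2* and 2.10 ± 1.03 for *H2-D1*. In 5 of 5 embryos the PrE-like sum was below the epiblast-like sum for *Psmb10*, *Psme1* and *Psme2* and above it for *H2-D1* and *H2-K1*, whereas *Psmb9* was higher in 3 and lower in 1. From E3.5 to E4.5 epiblast-like sums the values were 3.69 ± 0.49 for *Psmb10*, -6.15 ± 1.09 for *H2-K1* and -4.93 ± 1.12 for *H2-D1*, and *Tap1* was at least 10.6-fold lower, and these 4 were the members past the limits (19.3% of all genes). Of the 99 *Tap1* counts at E3.5, 94 came from embryo 4, and without it the fitted log2 fold change of *Tap1* moved from -7.79 to -3.04.

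From E5.5 to E6.5 epiblast-like sums, 5 of the 9 genes were lower past the limits (5.81% of all genes in that direction). The log2 fold changes were -3.67 ± 0.87 for *Psmb8*, -4.40 ± 1.26 for *Psmb9*, -1.65 ± 0.41 for *Psmb10* and -1.28 ± 0.33 for *Psme2*. *Tap1* went from 1463 to 2 counts, a ratio of 0.00226 with a counting interval of 0.000274 to 0.00819. The others stood at -0.59 ± 0.42 for *Psme1*, -1.03 ± 0.69 for *H2-D1*, -0.87 ± 0.63 for *H2-K1* and 1.26 ± 0.90 for *B2m*. In epiblast-like sums the E5.5 median was above those of E4.5 and E6.5 for every member except *B2m*. The genes were chosen on the E4.5 side, and the E6.5 side uses the same E5.5 sums. Between E5.5 and E6.5, *Psmb8* (from 16.7 CPM against up to 28.8 CPM) and *Psme2* (from 247.8 CPM against up to 259.1 CPM) overlapped. So did *Psme1*, *H2-D1*, *H2-K1* and *B2m*, whereas *Psmb9*, *Psmb10* and *Tap1* did not.

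Shares of cells with a count come from the same counts as the sums, so they describe the pattern and add no separate support. *Psmb8* had a count in 63.7% of E5.5 epiblast-like cells, with an exact (Clopper-Pearson) 95% interval of 57.5% to 69.6% for counting error, and in 62.2% after thinning every cell to 300000 counts. It was found in 0 of 99 E3.5 cells, 0 of 78 PrE-like cells and 0 of 27 E4.5 epiblast-like cells, for which 3 cells as the limit of a count of 0 allow shares of up to 3.03%, 3.85% and 11.1% and the exact 95% intervals end at 3.66%, 4.62% and 12.8%. At E6.5 it was found in 21 epiblast-like cells (11.7%, 7.41% to 17.4%), 4 of 26 streak-like cells and 2 of 41 endoderm-like cells. Over the 8 E5.5 embryos the share ran from 32% to 80% (median 67.5%), so no embryo was without such cells.

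*Psmb10* and *Psme2* had a count in every E5.5 epiblast-like cell, while *Psmb9* was seen in 69 (26.6%) and *Tap1* in 37 (14.3%). *H2-K1* was seen in 91 of 99 E3.5 cells (91.9%), 4 of 27 E4.5 epiblast-like cells (14.8%) and 67.2% of E5.5 epiblast-like cells. *B2m* was seen in 82 E5.5 epiblast-like cells (31.7%), 56.4% of E6.5 epiblast-like cells, 13 of 41 E6.5 endoderm-like cells (31.7%) and 26 of 26 streak-like cells. In thinned cells the median number of the 9 genes detected was 5 in E5.5 epiblast-like cells (range 2 to 9), 4 at E3.5 and in E6.5 epiblast-like cells, and 3 in both E4.5 classes.

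**Figure D3:**
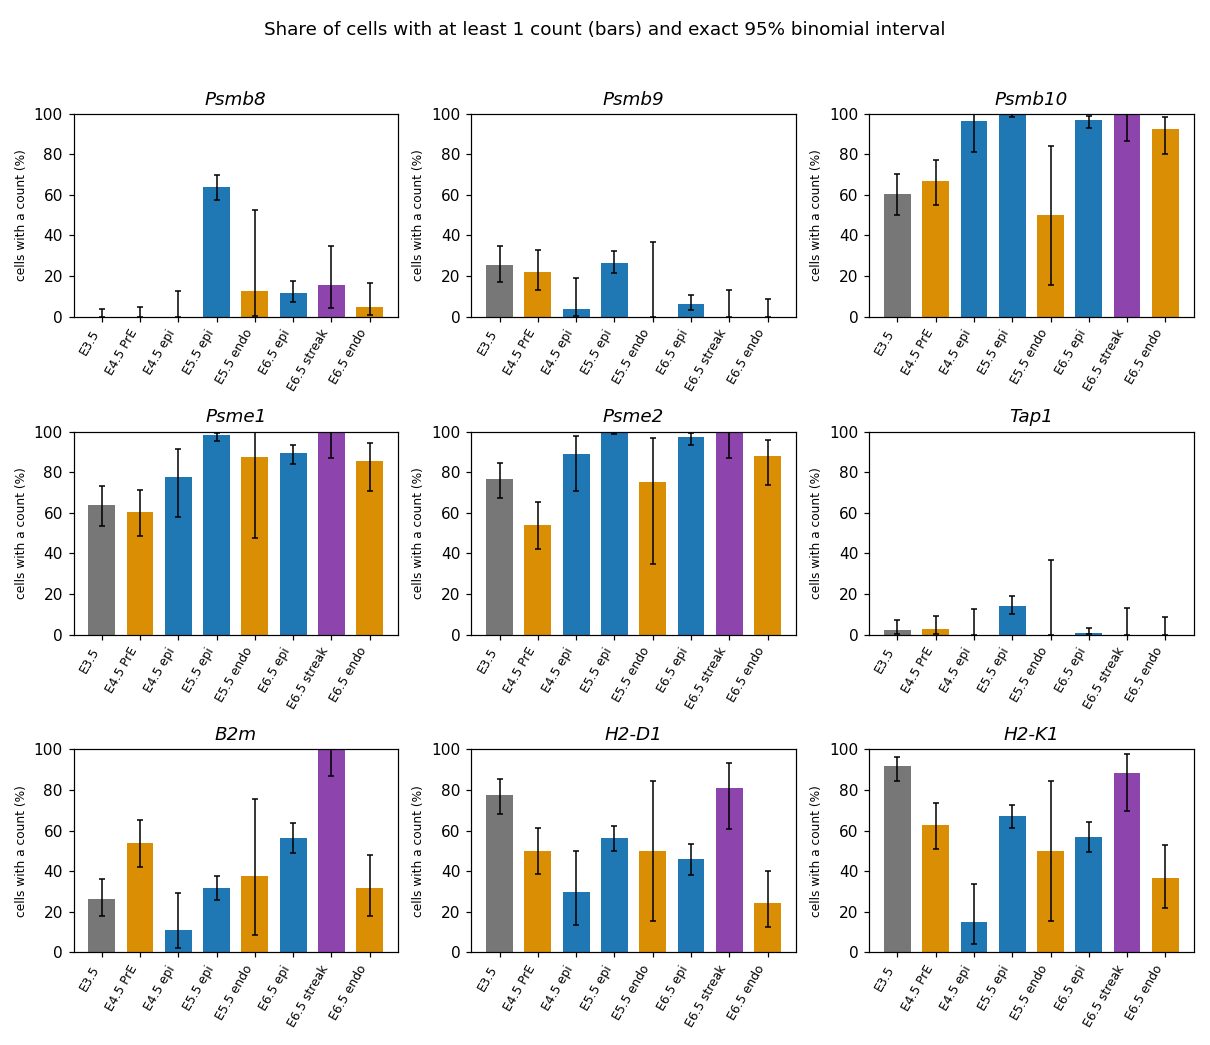
Percentage of cells with at least 1 count of each gene (vertical axes, 0 to 100%) by stage and class; bars are shares of all cells of the class and error bars exact 95% binomial intervals. *Psmb8* stands at 63.7% in E5.5 epiblast and at 0% in the 3 classes of E3.5 and E4.5, and *H2-K1* dips to 14.8% in E4.5 epiblast.

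Among E5.5 epiblast-like cells of the same embryo the proteasome genes had higher rank correlations with each other than the class I genes did. Given as a description, the median rank correlation over the 8 embryos was 0.552 for *Psmb10* with *Psme2* (range 0.136 to 0.664), 0.393 for *Psmb8* with *Psme2* and 0.377 for *Psmb8* with *Psmb10*, each above 0 in 8 of 8 embryos. It was 0.057 for *H2-D1* with *H2-K1*, above 0 in 4 of 8. Cells of an embryo share plate and depth differences, and sparse counts lower such values. Wells labelled as 1 and as 2 cells were also set side by side. In 6 E5.5 embryos with both kinds, *Psmb8* stood at a median of 103.3 CPM in single and 67.5 CPM in double wells and was higher in the double wells of 2.

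Across all 49 sums the Pearson correlation of log2(CPM + 1) was 0.849 for *H2-D1* with *H2-K1*, 0.736 for *Psmb8* with *Psme2*, 0.689 for *Psme1* with *Psme2*, 0.686 for *Psmb10* with *Psme1* and -0.403 for *Psmb10* with *H2-K1*. These sums share stages and embryos, and the choice of genes enters the values. Outside the 9 genes the pattern most like *Psmb8* was that of *Gm20496*, which overlaps it (r = 0.949), followed by *Sytl1* (0.885), *Nmi* (0.864), *Gm4969* (0.859) and *Plcb2* (0.851), all at mean levels of 8.51 to 28.4 CPM in E5.5 epiblast-like sums and near 0 at E3.5. For *B2m* the nearest were *Celf2* (0.747), *Tet3* (0.696), *Hunk* (0.681), *Eef1a1* (0.675) and *Tmem194b* (0.67).

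Comparisons that share no sums with the choice of the genes were tested across all 16984 genes. The first compared E6.5 epiblast-like with E3.5 cells. Of the 9 genes, 5 rose (26.4% of all genes) and 4 fell (15.6% of all genes). *Psmb10* rose by 3.84 ± 0.45 (log2 fold change ± SE, adjusted p = 1.46e-09) and *Psme2* by 2.29 ± 0.33 (adjusted p = 2.45e-07), and for both every E6.5 sum was above every E3.5 sum. *Psmb8* rose at least 106.6-fold, from 0 to 714 counts (adjusted p = 3.08e-06). *Psme1* rose by 1.88 ± 0.42 (adjusted p = 0.000383) and *B2m* by 2.38 ± 0.88 (adjusted p = 0.023), with overlapping groups.

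Both classical heavy chains fell over the same interval. *H2-K1* changed by -3.17 ± 0.63 (adjusted p = 7.33e-05), with no overlap, and *H2-D1* by -3.11 ± 0.70 (adjusted p = 0.000331). *Psmb9* changed by -4.94 ± 1.26 (adjusted p = 0.00168) and *Tap1* went from 99 to 2 counts (ratio 0.00904, counting interval 0.00108 to 0.0335, adjusted p = 0.000886). Without E3.5 embryo 4 the adjusted p of *Tap1* was 0.226. The *B2m* call was lost in 4 alternatives, with an adjusted p of 0.278 where sums needed at least 5 cells. The median over the 9 genes was 1.88 against 0.34 over all genes, and no plate name is shared between the stages, so stage and plate cannot be told apart.

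In the endoderm lineage the first tested step was from E3.5 to E4.5 PrE-like cells. *Psmb10* rose by 1.41 ± 0.49 (adjusted p = 0.0331). *Psme2* changed by -1.41 ± 0.43 (adjusted p = 0.0158), *H2-K1* by -2.79 ± 0.89 (adjusted p = 0.0213, no overlap) and *H2-D1* by -2.83 ± 0.98 (adjusted p = 0.0348). These 4 of 9 compare with 18.1% of all genes. *B2m* stood at 2.27 ± 1.002 (adjusted p = 0.103), *Psme1* at -0.40 ± 0.53 and *Psmb9* at -0.64 ± 1.45, and *Psmb8* had no count in either group. The median over the 9 genes was -0.64 (-1.03 with genes at 0 set to their bound), against 0.10 over all genes. Each of the 4 calls was lost when single embryos were left out: *Psmb10* without PrE-like embryo 1, 2 or 4 or E3.5 embryo 4 or 5 (adjusted p up to 0.103), *Psme2* without PrE-like embryo 2 (0.0612), *H2-K1* without PrE-like embryo 1, 2 or 5 (up to 0.0633) and *H2-D1* without any 1 of the 5 PrE-like embryos (0.0507 to 0.0868) or E3.5 embryo 3 or 4.

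The next step compared E6.5 endoderm-like with E4.5 PrE-like cells. *Psme2* rose by 2.60 ± 0.47 (adjusted p = 0.00016) and *Psmb10* by 1.70 ± 0.56 (adjusted p = 0.0407), both without overlap. *H2-D1* changed by -2.89 ± 0.94 (adjusted p = 0.0363, no overlap) and *Psmb9* was at least 71.6-fold lower, with 0 against 444 counts (adjusted p = 0.00477). These were 4 of 9 genes against 10.96% of all genes. *Psme1* stood at 1.65 ± 0.58 (adjusted p = 0.0528), *H2-K1* at -1.78 ± 0.82 (adjusted p = 0.142) and *B2m* at -1.33 ± 1.11 (adjusted p = 0.474). The calls of *Psmb10* (without PrE-like embryo 3, 4 or 5 or endoderm-like embryo 2, 6 or 8 or E6.75 embryo 2, adjusted p up to 0.117) and *H2-D1* (without PrE-like embryo 1, 3, 4 or 5 or endoderm-like embryo 2, 6, 7 or 8, up to 0.075) rested on single embryos.

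The 2 lineages of E6.5 were compared directly. *Psmb8* was lower in endoderm-like sums, with 3 against 714 counts (ratio 0.0176, counting interval 0.00363 to 0.0518, adjusted p = 0.00341), *Psme2* was lower by a log2 fold change of -1.10 ± 0.36 (adjusted p = 0.0299) and *H2-D1* by -2.61 ± 0.84 (adjusted p = 0.0285). These 3 of 9 genes stand against 8.29% of all genes in that direction and 14.7% in both. The other 6 did not pass, and their values were -0.73 ± 0.44 for *Psmb10*, -0.63 ± 0.46 for *Psme1*, -1.45 ± 0.96 for *B2m* and -1.40 ± 0.71 for *H2-K1*, with adjusted p of 0.157 to 0.35, while *Psmb9* had 0 against 58 counts (adjusted p = 0.0694) and *Tap1* 0 against 2. Within the 7 embryos with both classes, *Psme2* and *B2m* were lower in the endoderm-like sum of 7 and *Psmb8* and *H2-D1* of 5. Over these 7 embryos alone, the adjusted p was 0.0535 for *Psme2* and 0.366 for *H2-D1* without a block and 0.0683 and 0.496 with the embryo as a block, and *Psmb8* fell under the low-count filter. The median over the 9 genes was -1.40 (-1.42 with bounds) against -0.26 over all genes.

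The *Psme2* and *H2-D1* differences at E6.5 were also the ones that depended most on single sums. Without the endoderm-like sum of embryo 6, embryo 7 or E6.75 embryo 1 or the epiblast-like sum of embryo 8 the *Psme2* adjusted p rose to at most 0.0695, and without that of embryo 2, 6 or 7 the one of *H2-D1* rose to at most 0.0549. The *Psmb8* call held in every one of these and was lost with classes from Ward clustering (adjusted p = 0.0751). Endoderm markers stood at up to 6262 CPM in the epiblast-like sums, and their part in these values was not tested.

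**Figure D4:**
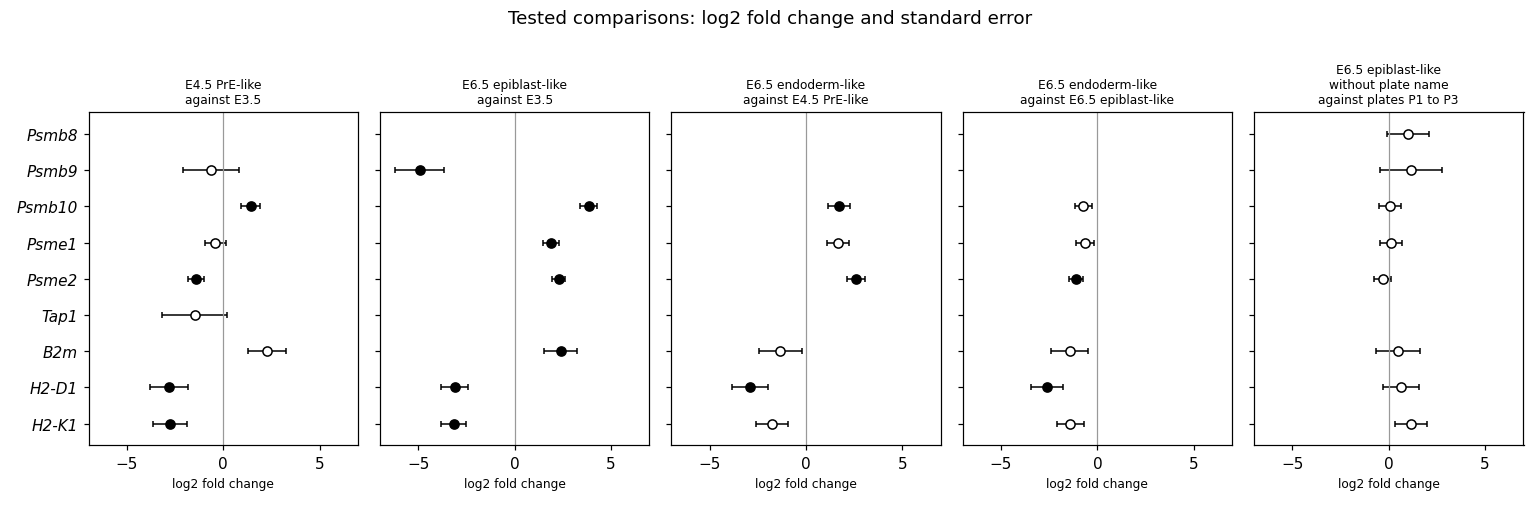
Log2 fold change (horizontal axes) with its standard error for the 9 genes in the 5 tested comparisons, with filled points for genes past the limits and open points for the others; genes with a group at 3 counts or fewer are not drawn. *Psmb10* and *Psme2* are right of 0 and *H2-D1* and *H2-K1* left of 0 for E6.5 epiblast against E3.5, and no point is filled for the comparison of plates.

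Libraries with and without a plate name were the last comparison. Among the E6.5 epiblast-like sums, the 4 without a plate name and the 8 from plates P1 to P3 differed in none of the 9 genes by edgeR's quasi-likelihood test (adjusted p of 0.566 to 1.0), against 0.765% of all genes past the limits. None had an unadjusted p under 0.05 and DESeq2 called 0 of the 9. The median over the 9 genes was 0.62 (0.55 with bounds). The plate label P11.P6.P10, which joins 3 plate names, marked cells of both E3.5 and E5.5. On it, the E3.5 sum and the 2 E5.5 epiblast-like sums held 0 against 146.8 and 132.5 CPM of *Psmb8*, 10.6 against 542.2 and 542.8 CPM of *Psmb10*, 26 against 379 and 354 CPM of *Psme2*, and 343.5 against 72.4 and 68.7 CPM of *H2-K1*.

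Other genes of the pathway were followed as lists, whose counts for E6.5 epiblast-like against E3.5 stand against 26.4% of all genes higher and 15.6% lower. Between E3.5 and E6.5 epiblast-like sums, none of 14 standard 20S core subunits rose and 2 fell, *Psmb3* by -1.36 ± 0.16 and *Psma7* by -1.31 ± 0.23 (list median -0.09). Of 20 subunits of the 19S regulator, which recognises ubiquitin-tagged proteins, none rose and 9 fell, among them *Psmd3* (-1.80), *Psmd2* (-1.58), *Psmd4* (-1.50) and *Psmc2* (-1.18), with a list median of -0.99. *Psme2b-ps*, a copy of *Psme2* (2.28), and *Psme4*, another activator (1.92), rose among 9 activators and assembly factors.

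Peptide loading and other class I genes were next. Of 10 loading and trimming genes, 3 rose, *Erap1*, a trimming peptidase (5.74 ± 1.42), *Tpp2* (1.71) and the chaperone *Canx* (1.04), and *Lnpep* fell (-2.91). Of 16 tested genes listed as other class I genes, 6 rose and 2 fell (list median 2.65, or 2.36 with bounds). *H2-T22* was at least 134.02-fold, *H2-T23* at least 90.6-fold, *H2-Q2* at least 63.4-fold and *Cd1d1* at least 61.9-fold higher. These 4 genes moved opposite to *H2-K1* and *H2-D1*. The list includes *H2-Ke6*, which lies in the MHC region but is not a class I gene, and which did not pass the limits here. Of 7 class II genes, 1 fell, *H2-Eb1* (-3.33).

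Genes of interferon control were mixed. Of 16 transcription factors of class I genes, 3 rose and 3 fell between E3.5 and E6.5 epiblast-like sums. *Irf1*, an interferon-regulated activator of this pathway, rose by 5.75 ± 1.01, *Nfkb1* by a ratio of 214.01 (counting interval 38.2 to 8470) and *Creb1* by 3.07, while *Relb* fell by 3.43. Of 13 interferon receptor and signalling genes, *Ifnar2* rose (2.88) and *Socs3* (-9.45 ± 1.26), *Socs1* (-5.09) and *Stat3* (-4.10) fell. Of 26 interferon-stimulated genes, 11 rose and 2 fell, led by *Ifit2* (at least 224.01-fold higher), *Eif2ak2* (ratio 162.4, counting interval 55.4 to 789), *Gbp7* (at least 59.4-fold) and *Zbp1* (at least 8.66-fold), with a list median of 2.0 (1.30 with bounds). *Irf1* stood at 17.1 ± 15.7 CPM (SD, n = 5) in E4.5 and 46.8 ± 16.7 CPM (SD, n = 8) in E5.5 epiblast-like sums. *Nlrc5*, the class I transactivator, chosen for mention after its values were seen, did not exceed 1.28 CPM in any sum.

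The same lists were followed between the E6.5 lineages, where 6.45% of all genes were higher and 8.29% lower in endoderm-like sums. By edgeR's test 0 of 14 subunits of the 20S core, 0 of 20 of the 19S regulator and 0 of 9 activators and assembly factors passed the limits between endoderm-like and epiblast-like sums. At an unadjusted p under 0.05 these were 2, 3 and 3, and DESeq2 called 0, 0 and 1 (*Psme2b-ps*). *Tapbpl*, a relative of tapasin, was lower in endoderm-like sums with 3 against 781 counts (ratio 0.0161, counting interval 0.00332 to 0.0473), as were *H2-Q2* (at least 33.7-fold) and *Cd1d1* (at least 32.9-fold), whereas *Fcgrt*, the neonatal Fc receptor, was higher (7.23 ± 1.39). Of 7 class II genes 4 were lower, *H2-DMa* at least 53.9-fold, *H2-Oa* at least 34.05-fold, *H2-DMb1* at least 8.73-fold and *Cd74* at least 4.84-fold. Of the 16 transcription factors 0 passed by edgeR, with 5 at an unadjusted p under 0.05 and 1 called by DESeq2 (*Rfxap*). Of the interferon receptor and signalling genes, *Il10rb* (4.86) and *Stat3* (1.89) were higher and *Socs1* at least 9.6-fold lower, and interferon-stimulated genes were split, with 3 of 26 higher and 3 lower, among them *Usp18* (6.12) and *Gbp7* (at least 31.6-fold lower).

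In PrE-like cells against E3.5, where 12.9% of all genes rose and 5.16% fell, the 19S list fell in 14 of 20 subunits, led by *Psmd11* (-1.88), *Psmd7* (-1.84), *Psmd4* (-1.71) and *Psmd12* (-1.52), and the 20S list in 3 of 14. *Calr* (2.46) and *Pdia3* (1.65), chaperones of peptide loading, rose, as did the receptor chains of interferon gamma, *Ifngr2* (3.45) and *Ifngr1* (3.08), while *Stat3* fell (-2.21). Of 26 interferon-stimulated genes 7 rose and 2 fell, with *Cxcl10* at least 280-fold higher. From PrE-like to E6.5 endoderm-like cells, *Cxcl10* was at least 148.7-fold lower, *Socs1* at least 321-fold and *Socs3* at least 143.3-fold lower, and *Irf1* (4.01) and *Psme2b-ps* (2.87) rose. Of the 14 subunits of the 20S core 0 passed by edgeR in that step, with 4 at an unadjusted p under 0.05 and 0 called by DESeq2. Comparisons here share sums pairwise, so their values are not independent of each other.

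For the contrast that chose the 9 genes, E5.5 against E4.5 epiblast-like sums, the lists are given as values. *Tap2*, *H2-M3*, *Zbp1*, *Ifit2* and *Cxcl10* had 0 counts at E4.5. The E5.5 level was at least 67.97-fold higher for *Tap2*, 64.1-fold for *H2-M3*, 120.9-fold for *Zbp1*, 19.7-fold for *Ifit2* and 19.5-fold for *Cxcl10*. *Psme2b-ps* stood at 3.27 ± 0.62 and the 19S subunit *Psmc4* at 1.03 ± 0.24. *H2-M5*, a nonclassical class I gene, went the other way, from 79.4 CPM in E4.5 to 0.823 CPM in E5.5 epiblast-like sums (-6.59 ± 1.38), as did *Calr* (-1.05 ± 0.25) and the RNA sensor *Ddx58* (-3.68 ± 1.04).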

How the data were processed

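Single mouse embryo cells were picked by hand and sequenced as Smart-seq2 libraries. The authors deposited 1 table of raw counts per gene and cell, which they made, per the labels and their processing notes, with Trim Galore 0.4.3, HISAT2 2.0.5 against GRCm38 and SeqMonk, keeping alignments mapped at quality 20 or better and cells with at least 4000 genes detected and at most 10% mitochondrial reads. Counting is not stated to use strand.

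Cells were assigned by consensus clustering (8 clusters over all cells, 5 within E6.5; scikit-learn 1.9.0, Python 3.11.15) in which the 9 genes and every listed pathway gene were held out, and named from markers. Counts of at least 3 cells of 1 class in 1 embryo were summed, giving 49 sums of 1476466 to 49484352 counts. The E3.5 cells of 1 plate that carry no embryo number were taken as 1 embryo. All sums entered 1 fit in edgeR 4.0.16 (R 4.3.3) with TMM factors and its filter on low counts, which left 16984 genes. Quasi-likelihood tests with Benjamini-Hochberg adjustment over those genes were called where the adjusted p did not exceed 0.05 and with an absolute log2 fold change above 1 (2 between the E4.5 classes). These p-values measure the spread between the embryos sampled and assume that embryos told apart by their labels are different ones. The SE of a log2 fold change was derived from the same test. It is the absolute log2 fold change divided by the square root of the F statistic. It thus restates the test and is approximate, above all for genes with many sums at 0. Where a group had no count, a bound against 3 counts over the group was used, and with 1 to 3 counts the pooled ratio with its exact 95% interval. Bounds and intervals cover counting error only. They leave out the sampling of cells, so a fold given as at least a value holds for counting error alone.

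The members, gene lists and tests were chosen with earlier results of these data known, so the E5.5 against E4.5 epiblast contrast and those sharing its sums carry no p. All 9 members are named in every comparison. Of each list, members past the limits in a tested comparison are named, up to 4 by size of change, together with the genes paired with a member. For likeness, the 5 genes with the highest Pearson r to *Psmb8* and to *B2m* are named.

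At E6.5, 7 embryos gave sums of both lineages and are paired by embryo. Deviations of the paired sums from their class means correlated at 0.0344 to 0.214, against at most 0.0188 to 0.197 with sums of other embryos, and a fit with the embryo as a block was run beside the main one. Counts were also simulated with each gene at 1 mean over all sums, so without the stage and class differences of the real data. On these counts, 200 of 16984 genes were changed 8-fold. Of these, 86 were recovered between the E6.5 lineages, 87 between E6.5 epiblast-like and E3.5 and 80 between PrE-like and E3.5 sums. Between E6.5 endoderm-like and PrE-like sums 54 were recovered, and between plates 66. In the same order, 29, 27, 7, 0 and 1 other genes, which had not been changed, were called. Absence of a call therefore carries little weight. Between the E6.5 lineages and between E6.5 epiblast-like and E3.5 sums, unchanged genes were a larger part of the calls than the limit on the adjusted p allows. The same held to a lesser degree between PrE-like and E3.5 sums. Single calls in these comparisons should thus be taken as less certain than their adjusted p states. How far this carries over to the real counts, where the groups differ in many more genes, was not tested. Alternatives were DESeq2 1.42.0, RLE factors, no filter, other minimum cell numbers, single cells only, Ward clustering, subsets of sums and leaving out embryos. Leaving out embryos of groups of more than 5, and the paired embryos without the block, were chosen after seeing the data.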

Additional observations from a re-analysis of the deposited data

Results flagged for a closer look

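Of 39 combinations of gene and class with 4 to 10 sums and unequal values, 8 had a sum far from the others by Dixon's criterion. Its chance rate of about 1 in 20 holds for normally distributed values. Some of these groups have sums at 0, and a group with all but 1 sum at 0 meets the criterion whatever the value. The number of flags therefore cannot be set against that rate. Of the 8, 3 concerned *Psmb9*. Its highest E3.5 sum held 57.6 CPM (embryo 5, next 26.6 CPM), its highest PrE-like sum 27.4 CPM (embryo 2, next 7.88 CPM) and its highest E4.5 epiblast-like sum 27.9 CPM (48 counts, the others at 0). The last 2 come from the same embryo. *Tap1* stood at 24.2 CPM in E3.5 embryo 4, from 94 counts, and at 3.77 CPM in PrE-like embryo 1, from 24 counts. *B2m* stood at 27.4 CPM in E4.5 epiblast-like embryo 5, and *H2-K1* at 106.01 CPM in PrE-like embryo 3, where the next sum held 41.9 CPM. *Psmb8* stood at 1.02 CPM in 1 E6.5 endoderm-like sum of 4 cells, from 3 counts, with the other 6 at 0.

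The 4 unnamed cells, which enter no comparison, held 9092762 counts in all. Of the 9 genes they had 3362 counts of *Psmb10*, 1402 of *Psme2*, 761 of *Psme1*, 391 of *H2-K1*, 21 of *B2m* and 10 of *H2-D1*, each above the 3 counts that a count of 0 allows.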

How the results depend on the processing

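Over the 9 genes and the 5 tested comparisons, 90.3% of the values for the E6.5 lineages kept their direction and their side of the limits, as did 97.9% for E6.5 epiblast-like against E3.5, 85.5% for PrE-like against E3.5, 80.5% for E6.5 endoderm-like against PrE-like and 91.1% for the plates. The direction changed in 17 values, in each of which the adjusted p was above 0.05 in both fits (lowest 0.0986). On the log2 scale, *Tap1* went from -1.36 to 0.48 with DESeq2 and *H2-K1* from -1.40 to 0.0807 with sums of at least 1 cell between the E6.5 lineages, and *B2m* from -1.33 to 0.0296 with at least 1 cell in E6.5 endoderm-like against PrE-like sums. In PrE-like against E3.5 sums *Tap1* went from -1.49 to 2.68 with at least 5 cells and ranged from -4.01 to 3.25 when 1 embryo was left out, the highest without E3.5 embryo 4, and *Psmb9* ranged from -1.77 to 0.0557. Between the plates *Psmb9* went from 1.16 to -1.44 with Ward clustering and to -1.54 with at least 1 cell, *Psme2* from -0.32 to 0.0156 with Ward clustering, *Psmb10* from 0.0564 to -0.14 in single cells, -0.0131 with at least 1 cell and -0.0352 with at least 5, and *Psme1* from 0.10 to -0.034 in single cells and -0.18 with at least 5. Leaving out 1 embryo without a plate name gave -0.27 to 1.40 for *Psmb8*, -0.13 to 0.15 for *Psmb10* and -0.0666 to 0.21 for *Psme1*. Of the contrasts given as descriptions, *B2m* and *Psmb9* changed direction in 5 values, among them *B2m* in E4.5 epiblast-like against E3.5 sums (0.79, and -0.86 without E4.5 embryo 5). The fit with the replicate block at E6.5 used the 7 paired embryos, and *Psme2* and *H2-D1* lost their calls over these embryos with and without the block, so the loss cannot be put down to the block. No other call of a gene it could test changed. The counts of genes past the limits moved more. For the E6.5 lineages 2503 genes (43.8% higher) became 1319 when tested against the limit itself, 1627 without cells titled E6.75, 952 in a fit of the 2 groups only (52.7% higher), 558 with the embryo as a block (60.2% higher), 482 over the same embryos without the block (71.6% higher) and 377 on plates P1 to P3 alone (56.5% higher). A fit of the groups compared only gave 3033 in place of 7130 genes for E6.5 epiblast-like against E3.5, 1587 in place of 3072 for PrE-like against E3.5 and 876 in place of 1861 for E6.5 endoderm-like against PrE-like, and the test against the limit gave 1927 and 978 for the last 2. For the plates, 130 genes became 282 with DESeq2, 2 against the limit, 33 in single cells, 56 with sums of at least 1 cell, 32 with at least 5 cells and 42 without E6.75, and between 37 and 56 when 1 embryo without a plate name was left out. Of the contrasts given as descriptions, E5.5 against E4.5 epiblast-like sums went from 964 to 635 genes with sums of at least 1 cell, the E4.5 classes from 762 to 1260 with DESeq2, to 482 with at least 1 cell and to between 503 and 668 without 1 embryo, and E4.5 epiblast-like against E3.5 from 3286 to 1780 with at least 5 cells. These causes were not tested, beyond the smaller number of sums in the subsets.

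Member calls at E6.5 between lineages were lost for *Psme2* in single cells (adjusted p = 0.0674), without E6.75 (0.0772) and with Ward clustering (0.0591). Those for *H2-D1* were lost with at least 5 cells (0.0735), in the fit of 2 groups (0.188) and with Ward clustering (0.104). Against the limit itself both were lost (0.478 for *Psme2*, 0.0808 for *H2-D1*), as on plates P1 to P3 alone (0.116 and 0.418). Against the limit all 4 calls of PrE-like against E3.5 sums were lost too (0.0591 to 0.276). The same held for *Psmb10* (0.183) and *H2-D1* (0.0869) in E6.5 endoderm-like against PrE-like sums. *B2m* against E3.5 was lost against the limit (0.0619), in single cells (0.0611) and with sums of at least 1 cell (0.058), and *Psme1* in E6.5 endoderm-like against PrE-like sums was gained with DESeq2 (0.00893) and RLE factors (0.0452). At this depth *Psmb8*, *Psmb9* and *Tap1* were at 0 in many sums, which bounds their folds from 1 side only.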

Other observations

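Some values chosen after they were seen belong to classes with 1 sum. The E5.5 endoderm-like sum held 5 cells of 1 embryo, and its *Psmb8*, *Tap1* and *B2m* counts were 0. Over all 8 cells of that class, from 4 embryos, *Psmb8* was seen in 1, *B2m* in 3 and *Tap1* in 0. The streak-like sum, 25 cells of 1 embryo, had the largest share of cells with *B2m*, and its *Irf1* level was 23.6 CPM, within the E6.5 epiblast-like range of 7.42 to 141.95 CPM.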
